A study of Mus musculus with 8 samples.

Results

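Mural cells are the pericytes and smooth muscle cells that lie on the outer face of blood vessels. In single-nucleus RNA sequencing (snRNA-seq) of the adult mouse optic nerve (ON), 56 of 40845 nuclei were chosen as mural nuclei by marker genes. A member had at least 1 unique molecular identifier (UMI, a counted RNA molecule) of 3 or more of 6 genes, Pdgfrb, Rgs5, Abcc9, Notch3, Kcnj8 and Myh11. It also had fewer than 3 UMIs of the endothelial genes Flt1 and Ptprb together, at most 1 UMI of the fibroblast gene Dcn and fewer than 3 UMIs of the oligodendrocyte gene St18. The levels of these 10 genes therefore describe the choice and are not findings. The 40845 nuclei are the barcodes with at least 1000 UMIs and under 5% mitochondrial UMIs.

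The study compared 4 control libraries (replicates 1 to 4) from Piezo2f/f mice without cre with 4 libraries labelled Olig2-cre;Piezo2f/f cKO (conditional knockout, replicates 10 to 13). Both groups carry the floxed Piezo2 alleles on a C57BL/6J background, and all mice were female and were studied at postnatal day 120. Cre was knocked into Olig2, a gene of the oligodendrocyte lineage, so recombination is directed to that lineage rather than to vessels. Each library pooled 6 ONs of 3 mice, so a library is the replicate and differences between mice of a pool were not measured. In oligodendrocytes, the intended target, the level of Piezo2 in CPM (UMIs scaled to a total of 1000000 per sum) was 451, 357, 354 and 427 for controls and 491, 478, 519 and 482 for libraries labelled cKO. The labelled cKO libraries were therefore not lower for the targeted gene. Olig2, the gene that carries cre, stood there at 24.6 to 39.2 CPM in controls and at 42.8 to 55.5 CPM in libraries labelled cKO, with no overlap and the latter higher. Gene-level counts do not separate the floxed exons from the rest of the gene, so this count does not check the deletion itself. Total UMIs per library were 39628926 to 56541132, and 188 of 40657 distinct barcodes of passing nuclei occurred in more than 1 library, none of them mural.

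Pericytes sit in the basement membrane of capillaries, are held there by platelet-derived growth factor B from endothelial cells acting on the receptor Pdgfrb, and take part in the blood-brain barrier. Arteriolar smooth muscle cells carry the contractile apparatus, with Acta2 and Myh11, and set vessel diameter. Both respond to calcium entry through voltage-gated and receptor-operated channels, to membrane hyperpolarization through the ATP-sensitive potassium channel formed by Kcnj8 and Abcc9, and to nitric oxide through soluble guanylate cyclase.

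The controls gave 29 mural nuclei, with 8, 6, 12 and 3 in replicates 1 to 4, and the libraries labelled cKO gave 27, with 9, 4, 4 and 10 in replicates 10 to 13. Of the 56 nuclei, 22 had exactly 3 of the 6 genes, 20 had 4, 13 had 5 and 1 had all 6. Pdgfrb, the receptor for platelet-derived growth factor B, was detected in 48 nuclei and Notch3, a Notch receptor of mural cells, in 47. Abcc9, the regulatory subunit of the potassium channel, was detected in 41, Rgs5, a regulator of G protein signaling, in 40, Kcnj8, the pore of that channel, in 26 and Myh11, the smooth muscle myosin heavy chain, in 15. Abcc9 (chr6:142533588-142648571, GRCm39, minus strand) and Kcnj8 (chr6:142510563-142517830, minus strand) are neighbors in the genome. The median mural nucleus held 1832.5 UMIs (range 1038 to 24877) and 1211.5 genes, below the median of all nuclei in each library, 2473 to 3413 UMIs, except in cKO replicate 12.

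**Figure D1:**
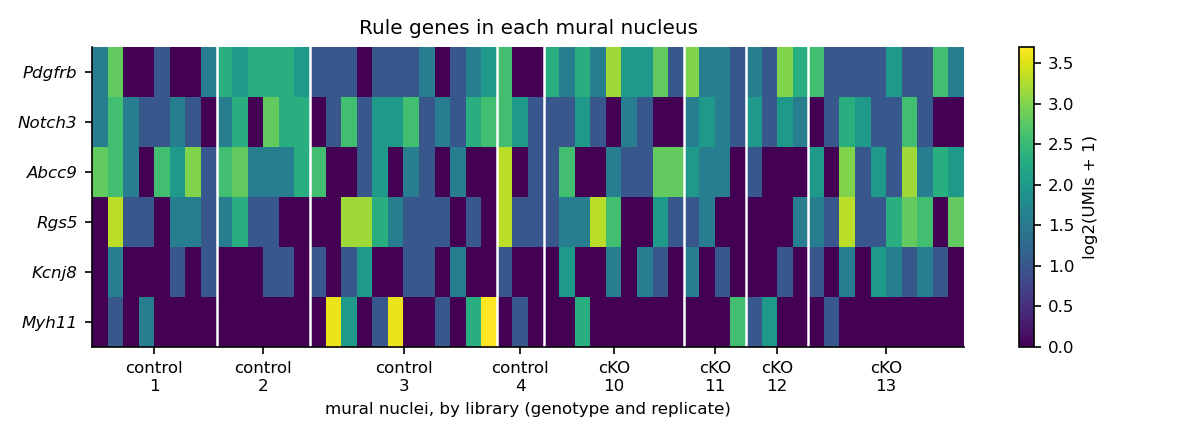
UMIs of the 6 genes of the rule (rows) in each of the 56 mural nuclei (columns, ordered by library), as log2(UMIs + 1) on the color scale. Pdgfrb and Notch3 were detected in most nuclei, whereas Myh11 was at 0 in 41 nuclei and reached its highest counts in 3 nuclei of control replicate 3.

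The choice of threshold was described at both sides. The 22 nuclei with exactly 3 genes had a median of 1968 UMIs and gave 0.648% of their UMIs (median) to a separate list of 14 pericyte genes. The 154 nuclei just outside, with exactly 2 of the 6 genes, had a median of 3411 UMIs and gave 0.117% to the same list, and the 34 nuclei with 4 or more genes gave 0.981%. Another 160 nuclei had 3 or more of the 6 genes but were left out by Flt1 and Ptprb (116), Dcn (84) or St18 (55), where a nucleus can fail more than 1 limit. Below 1000 UMIs, 15 further barcodes of at least 500 UMIs had 3 or more of the genes and were not used.

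Some members also held RNA of other cell types. In 11 of the 56, the marker list of another type reached 0.75 or more of its median level in that type's own nuclei. The type was fibroblast in 6, astrocyte in 4 and oligodendrocyte precursor cell (OPC) in 1. These 11 nuclei were large, with a median of 4983 UMIs against 1664 in the other 45, and supplied 45.8% of the 162001 mural UMIs. A single nucleus of cKO replicate 12, among these 11, held 15.4% of them. It supplied 24877 of the 39665 mural UMIs of that library, so the mural levels of cKO replicate 12 rest largely on this mixed nucleus. Removal of the highest doublet scores would have taken 5 members. The fibroblast list of 10 genes stood at 8636 CPM in the pooled mural UMIs, at 1241 CPM without the 11 nuclei and at 16442 CPM in fibroblasts, and all 10 were detected in members. Trpm3 supplied 921 of its 1399 UMIs, Cped1 144, Ranbp3l 132, Bnc2 and Sdk1 52 each, Adamtsl3 42, Col1a2 31, Fbln1 14, Col1a1 9 and Lum 2. The oligodendrocyte list of 7 genes stood at 4290 CPM, beside 4764 CPM in endothelial cells and 3177 CPM in fibroblasts, and all 7 were detected. The astrocyte list of 7 genes stood at 1327 CPM against 4737 CPM in astrocytes. The endothelial list of 12 genes stood at 735 CPM against 12129 CPM in endothelial cells, with 119 UMIs of 11 genes. Abcg2 had 31 of them, Emcn 20, Pecam1 1 and Cyyr1 0. Emcn and Abcg2 were called higher than in all other nuclei, by 4.80 ± 0.71 and 1.82 ± 0.47 on the log2 scale (adjusted p = 5.3e-05 and 0.016). In barcodes under 100 UMIs, taken as free RNA, the pericyte list took 0.0648% to 0.0948% of the UMIs of a library (0.710% in mural nuclei), the fibroblast list 0.151% to 0.244% (0.864%), the oligodendrocyte list 1.55% to 2.01% (0.429%) and the endothelial list 0.0167% to 0.031% (0.0735%). The part of doublets and of free RNA in the results below was not tested beyond these values and those given without the 11 nuclei.

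Gene levels in mural nuclei were compared with 229 endothelial cells, 3634 fibroblasts and all other nuclei, the first chosen by endothelial markers, the next by fibroblast markers and the last being every nucleus outside the rule. Endothelial cells and fibroblasts were also allowed at most 1 of the 6 genes of the rule. Higher levels of mural genes against both groups were therefore favored by the choice on either side. Against all other nuclei they were favored by the choice of mural nuclei. UMIs were summed per library and cell type and tested with edgeR's quasi-likelihood test with Benjamini-Hochberg (BH) adjustment, to which every adjusted p below refers unless another test is named. Calls needed a log2 fold change beyond 0.5 in either direction together with an adjusted p below 0.05. A minimum of 10 nuclei per sum left only control replicate 3 and cKO replicate 13, with 22 mural nuclei. There, 4.45% of 2291 genes were higher and 4.63% lower in mural than endothelial nuclei, 0.653% of 11643 were higher and 1.51% lower than in fibroblasts, and 0.52% of 17099 were higher and 1.66% lower than in all other nuclei, and the median log2 fold change over all tested genes was -0.09, -0.60 and -1.23. These values are called the 10-nucleus sums below. They used TMM scaling in each comparison, whereas the values below against fibroblasts and all other nuclei used total UMIs. A list median from the 10-nucleus sums is therefore read against the medians just given. The gene values below come from all 8 libraries. The number after the ± of a log2 fold change is an approximate SE, the absolute fold change divided by the square root of the test's F statistic. In these fits 16% of 750 tested genes were higher and 23.5% lower than in endothelial cells, 2.74% of 9846 were higher and 2% lower than in fibroblasts, and 3.35% of 16646 were higher and 2.97% lower than in all other nuclei. The split between higher and lower depended on the scaling. With TMM scaling in place of total UMIs, 193 genes were higher and 1010 lower than in fibroblasts, and 296 were higher and 2613 lower than in all other nuclei, while the median over all tested genes moved from -0.07 to -0.58 and from -0.12 to -0.97. DESeq2 moved the split the other way, with 2321 higher and 355 lower than in fibroblasts (median 0.35) and 10061 higher and 1179 lower than in all other nuclei (median 0.88). The share called differs with the number of genes that the shallow sums allowed to be tested, so a list is read against the percentage of its own comparison. These counts describe the lists and support nothing, since a gene could pass the filter on low counts through the mural sums alone. The 3 comparisons share the mural sums. The 4 libraries of each group are separate pools, and a p-value of the 8-library fits measures the spread between pools. The 10-nucleus sums hold 1 library of each group, so their p-values do not measure the spread between pools of the same group.

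Of the 14 listed pericyte genes outside the rule, all with UMIs in members, 12 were higher than in all other nuclei and none lower (median log2 fold change 2.86, against -0.12 over all tested genes). Against fibroblasts 10 of 14 were higher (median 2.93 against -0.07), and against endothelial cells 3 of 4 tested (median 3.37 against 0.04). In the 10-nucleus sums 7 of 14, 6 of 13 and 8 of 9 were higher in the same order. Vtn, which encodes the matrix protein vitronectin, stood at 1400.2, 1432, 743 and 343 CPM across control replicates 1 to 4 and 1554, 939, 731 and 1042 CPM across cKO replicates 10 to 13. All 8 values were above the endothelial range of 36.8 to 124 CPM and the range of all other nuclei, 84.1 to 153 CPM, but the value of control replicate 4 fell inside the fibroblast range of 309.5 to 539 CPM. The difference from endothelial cells was a log2 fold change of 3.99 ± 0.31 (adjusted p = 1.0e-10).

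Atp13a5, a P-type ATPase, had 169 UMIs in 31 members. Its levels were 2192, 1879, 743 and 114 CPM across control replicates 1 to 4 and 1913, 845, 25.2 and 1764 CPM across cKO replicates 10 to 13. Control replicate 4 and cKO replicate 12 each had a single UMI and lay far below the other 6 libraries. Against endothelial cells, at 0 to 43.4 CPM, the difference was a log2 fold change of 6.43 ± 0.65 (adjusted p = 1.0e-08). Cald1, which encodes the actin-binding protein caldesmon, was detected in 50 of 56 nuclei and was higher than in endothelial cells (log2 fold change 2.74 ± 0.30, adjusted p = 2.8e-08). Among the sparser genes, Ndufa4l2, a mitochondrial protein, Higd1b, a hypoxia-inducible domain protein, and Art3, of the ADP-ribosyltransferase family, had 26, 9 and 32 UMIs and were higher than in all other nuclei by 5.65 ± 0.51, 5.18 ± 0.66 and 3.56 ± 0.41 on the log2 scale (adjusted p = 3.1e-08, 7.2e-06 and 1.5e-06). Art3 had no UMI in endothelial cells and was at least 45.4-fold higher in mural nuclei, counted against a floor of 3 UMIs over the pooled endothelial sum. Cspg4, the proteoglycan NG2 that OPCs share, was higher by 2.92 ± 0.42 (adjusted p = 3.4e-05). Mcam, an adhesion molecule also known as CD146, and P2ry14, a receptor for UDP-sugars, had 26 and 35 UMIs and were higher than in fibroblasts by 4.46 ± 0.52 and 2.70 ± 0.37 (adjusted p = 4.1e-08 and 1.7e-06).

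The other genes of the list were less clear. The transcription factor genes Tbx18 and Foxf2 had 6 and 4 UMIs, too few to place them, with log2 fold changes of 1.23 ± 0.72 and 2.62 ± 1.01 against all other nuclei (adjusted p = 0.43 and 0.15; Foxf2 passed under DESeq2, adjusted p = 0.0012). The proline transporter gene Slc6a20a and the aminopeptidase gene Anpep did not pass the test against fibroblasts, with log2 fold changes of 0.25 ± 0.31 and 0.03 ± 0.49. Anpep, with 10 UMIs, lost its call against all other nuclei without control replicate 1 or 3 or cKO replicate 10 or 13 (adjusted p = 0.055 to 0.20), and Slc6a20a lost it without the 11 mixed nuclei (adjusted p = 0.13).

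**Figure D2:**
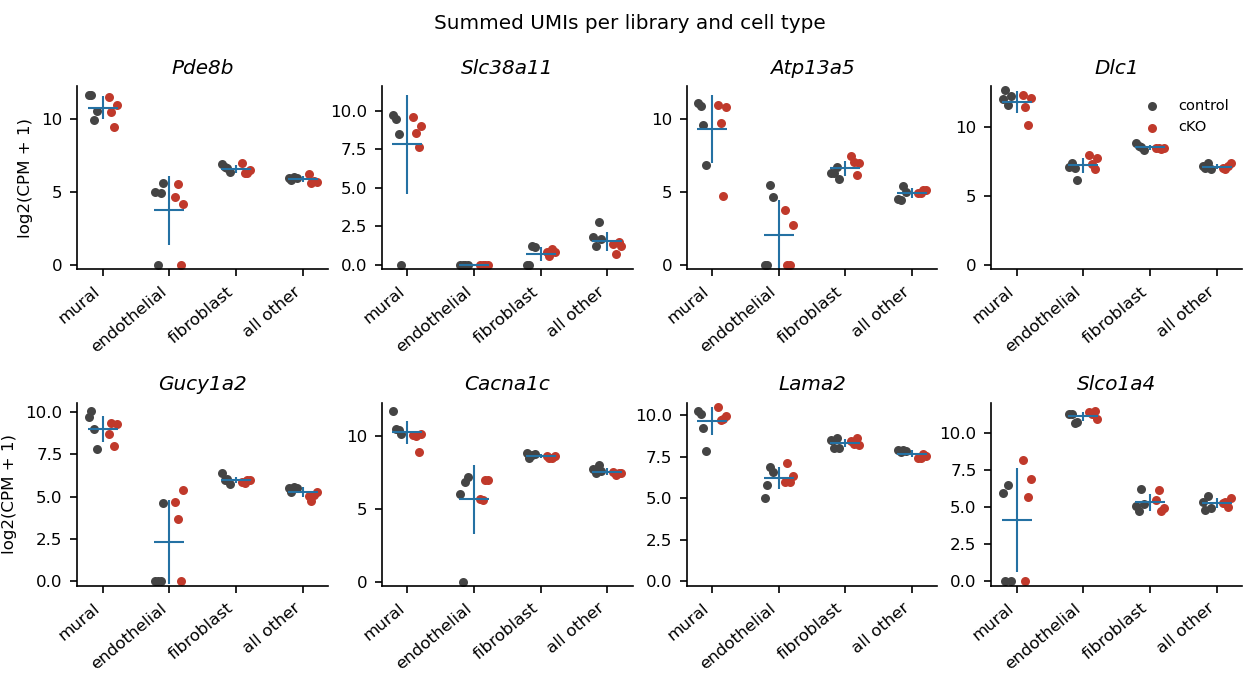
Levels of 8 genes per library as log2(CPM + 1) in mural, endothelial, fibroblast and all other nuclei; each point is a library (4 controls and 4 labelled cKO), and the horizontal and vertical lines are the mean ± SD of 8 libraries. Pde8b, Dlc1, Gucy1a2 and Cacna1c were higher in mural nuclei than in the other 3 groups in every library, and Slco1a4 was lower than in endothelial cells in every library, an agreement that was part of how genes were named.

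Among genes of calcium entry, Cacna1c was higher in mural nuclei than in each group it was compared with. Of 17 listed ion channel and calcium genes, 16 had UMIs in members. Against all other nuclei 8 of 16 tested were higher and none lower (median 1.35), against fibroblasts 5 of 14 were higher (median 0.53), and against endothelial cells 3 of 7 were higher and 2 lower (median 0.55). With the 10-nucleus sums 4 of 16, 4 of 16 and 3 of 9 were higher in that order. Cacna1c, the pore of the L-type calcium channel, stood at 3348, 1432, 1367 and 1142 CPM across control replicates 1 to 4 and 1076, 1033, 479 and 1122 CPM across cKO replicates 10 to 13. No mural library overlapped the endothelial range of 0 to 143 CPM, and control replicate 1 lay well above the other controls. The difference from endothelial cells was a log2 fold change of 4.04 ± 0.38 (adjusted p = 3.1e-09), and from fibroblasts a log2 fold change of 1.72 ± 0.23 (adjusted p = 7.2e-07). Ano1, the calcium-activated chloride channel, was found in 32 nuclei of 7 libraries and was higher than in endothelial cells (log2 fold change 5.30 ± 0.61, adjusted p = 6.6e-08). The T-type calcium channel gene Cacna1h, the receptor-operated channel genes Trpc4 and Trpc6 and the calcium-activated cation channel gene Trpm4 were sparse, with 7, 23, 10 and 6 UMIs, and each was higher than in all other nuclei (adjusted p = 0.00074, 2.5e-06, 6.1e-05 and 0.043). Trpc4 had no UMI in endothelial cells, which makes it at least 32.6-fold higher in mural nuclei. Itpr1, the calcium release channel of the endoplasmic reticulum, was higher than in all other nuclei (log2 fold change 1.94 ± 0.23, adjusted p = 2.3e-06), whereas Plcb1 and Plcb4, phospholipases upstream of it, were lower than in endothelial cells, with log2 fold changes of -2.74 ± 0.47 and -1.64 ± 0.35 (adjusted p = 2.6e-05 and 0.00037). The potassium channel gene Kcna5 had 2 UMIs and was not tested, and its counts gave ratios of 29.2 (3.46 to 110.1) to all other nuclei and 35.9 (3.42 to 219) to fibroblasts, where the exact 95% intervals in parentheses cover counting error only. The ryanodine receptor genes Ryr2 and Ryr3 had 4 and 0 UMIs, and no difference was detectable for them at this depth.

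The 3 listed subunits of soluble guanylate cyclase, the enzyme that nitric oxide activates, were higher in mural nuclei than in fibroblasts and in all other nuclei. Of 17 listed vasoactive receptors and cyclic nucleotide genes, 15 had UMIs in members. In mural nuclei 11 of 14 tested were higher than in all other nuclei (median 3.83), 7 of 10 were higher and 1 lower than in fibroblasts (median 2.57), and 4 of 5 were higher than in endothelial cells (median 2.14), against 7 of 15, 6 of 13 and 4 of 7 in the 10-nucleus sums. Gucy1a2 (chr9:3532778-3905741, plus strand), a subunit of soluble guanylate cyclase, stood at 852, 1074, 505 and 228 CPM across control replicates 1 to 4 and 418, 658, 252 and 641 CPM across cKO replicates 10 to 13. Each library lay above the endothelial range of 0 to 40.4 CPM and the fibroblast range of 53 to 82.7 CPM (log2 fold change 5.15 ± 0.49, adjusted p = 3.7e-09, in the test against endothelial cells). The partner subunits Gucy1a1 and Gucy1b1 had 24 and 48 UMIs and were higher than in fibroblasts by 3.10 ± 0.48 and 4.21 ± 0.40 on the log2 scale (adjusted p = 1.3e-05 and 3.1e-10).

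Prkg1, the kinase that cyclic GMP activates, was detected in 53 of 56 nuclei, with 1948, 2506, 3060.3 and 1713 CPM across controls and 2391, 1315, 1538 and 2204 CPM across libraries labelled cKO. These values overlapped the endothelial range of 1056 to 2675 CPM (log2 fold change 0.34 ± 0.24, adjusted p = 0.25), and all lay above fibroblasts at 240.1 to 648 CPM (log2 fold change 2.37 ± 0.22, adjusted p = 2.4e-10). Against endothelial cells Prkg1 passed without the 11 mixed nuclei (log2 fold change 0.64, adjusted p = 0.018). Among the phosphodiesterases, which break down cyclic nucleotides, Pde3a was higher than in endothelial cells (log2 fold change 4.01 ± 0.48, adjusted p = 1.2e-07), with 731, 268, 1278 and 228 CPM across controls and 359, 93.9, 479 and 481 CPM across libraries labelled cKO. Pde5a, which breaks down cyclic GMP, was higher than in all other nuclei (log2 fold change 2.48 ± 0.51, adjusted p = 0.0023) but not detectably different from fibroblasts (0.37 ± 0.37, adjusted p = 0.74). Pde1a was lower than in fibroblasts (log2 fold change -1.07 ± 0.28, adjusted p = 0.014) and lost that call without cKO replicate 10 or 13 (adjusted p = 0.053 and 0.054). Of the receptors, the endothelin receptor gene Ednra had 37 UMIs in 28 nuclei of all 8 libraries and was higher than in fibroblasts (log2 fold change 2.77 ± 0.36, adjusted p = 4.7e-07), and in endothelial cells the 2 UMIs gave a mural to endothelial ratio of 78.7 (20.3 to 674), with the exact 95% counting interval in parentheses. The adenosine receptor gene Adora2a and the thromboxane receptor gene Tbxa2r were called higher than in all other nuclei on 7 and 5 UMIs (adjusted p = 0.00088 and 0.0028). Tbxa2r had 0 UMIs in control replicate 3 and cKO replicate 13, and its log2 fold change in the 10-nucleus sums was -6.65 (adjusted p = 0.95). The angiotensin receptor gene Agtr1a had 1 UMI, and the vasopressin receptor gene Avpr1a and the purinergic receptor gene P2rx1 had none.

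**Figure D3:**
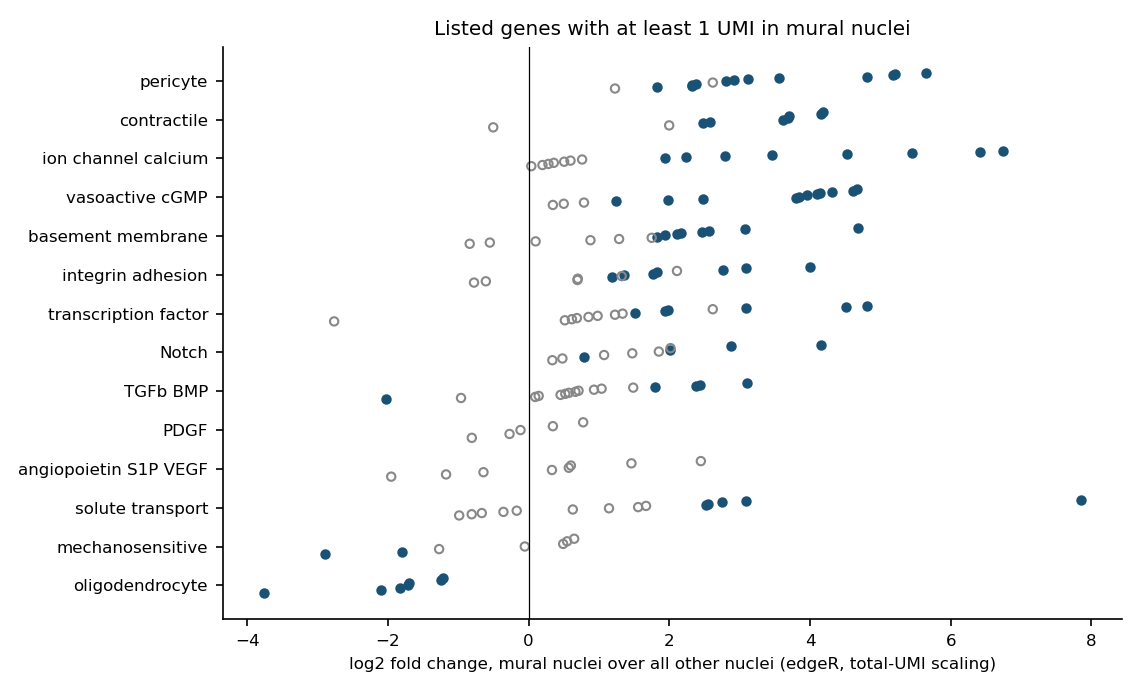
Log2 fold change of mural nuclei over all other nuclei (edgeR, total-UMI scaling, 8 libraries) for each listed gene with at least 1 UMI in mural nuclei; filled points were called and open points were not. In the pericyte list 12 genes were called higher, in the vasoactive and cyclic GMP list 11, and in the oligodendrocyte list 7 genes were called lower. The rule's limit on St18 favored the last of these.

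Of 14 listed contractile genes, 12 had UMIs in members, and Cnn1 and Actg2 had none, which allows up to 18.5 CPM each (3 UMIs of 162001). Against all other nuclei 7 of 9 tested were higher (median 3.62), and against fibroblasts 4 of 7 (median 2.16). The 10-nucleus sums had 5 of 10 and 3 of 9 higher. Against endothelial cells only 1 gene, Rbpms, was tested, and the 10-nucleus sums had 0 of 2 higher. The summed list stood at 1617 CPM in mural nuclei, 733 CPM in endothelial cells, 416 CPM in fibroblasts and 798 CPM in astrocytes. Acta2, the actin of smooth muscle, had 32 UMIs in 6 nuclei, of which 31 UMIs were in control replicate 3 and 1 in control replicate 1, and it was at 0 in the 6 other libraries. Acta2 was higher than in all other nuclei (log2 fold change 4.18 ± 0.85, adjusted p = 0.0019), but without control replicate 3 the log2 fold change was 0.10 (adjusted p = 0.98). Tagln, an actin-binding protein of smooth muscle, and Lmod1, an actin nucleator, also lost their calls without that library (adjusted p = 0.63 and 0.28). The myosin light chain kinase gene Mylk was spread more widely, with 30 UMIs in 18 nuclei of all 8 libraries (log2 fold change 3.62 ± 0.40, adjusted p = 7.9e-07, against all other nuclei). Rbpms, an RNA-binding protein, was detected in 40 nuclei and was higher than in fibroblasts (log2 fold change 2.16 ± 0.25, adjusted p = 5.0e-08). Against endothelial cells it was higher by a log2 fold change of 0.82 ± 0.28 (adjusted p = 0.021), a call that was lost with library as a block (0.48, adjusted p = 0.29) and without control replicate 1, 2 or 3 or cKO replicate 13 (adjusted p = 0.051 to 0.095). Smtn and Des, a cytoskeletal protein and the intermediate filament desmin, were called higher than in all other nuclei on 7 and 5 UMIs, and lost their calls without control replicate 1, 2 or 3 (Smtn) or without control replicate 1 or cKO replicate 13 (Des; adjusted p = 0.051 to 0.10 in all).

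The 3 nuclei with the most Myh11 UMIs also gave the largest shares of their UMIs to the contractile list, 0.840%, 0.951% and 1.07%, and the next nucleus gave 0.504%. Ranges of Myh11 UMIs were set after the values were seen and are described without a test. The rule itself bears on them, since a nucleus needed 3 of 6 genes and Myh11 was 1 of them. In the 41 nuclei without Myh11, Abcc9 was detected in 38 and Kcnj8 in 24, the pericyte list stood at 8600.1 CPM and the contractile list at 992 CPM. Of the 97 UMIs of the contractile list there, Rbpms supplied 61 and Mylk 14. In the 12 nuclei with 1 to 5 Myh11 UMIs, Abcc9 was detected in 3 and Kcnj8 in 2, and the lists stood at 4633 and 1417 CPM. Of those 12, 5 also held markers of another type and supplied 44126 of their 55037 UMIs, and in the other 7 the lists stood at 11181 and 3483 CPM. Without such nuclei the 41 became 36, with the lists at 9832 and 1179.9 CPM, and the summed pericyte list was then not lower in the nuclei with 1 to 5 Myh11 UMIs. Ebf1 and Cald1 supplied 97 and 58 of the 255 pericyte-list UMIs of the 12, and 194 and 137 of 841 in the 41. Mixed nuclei included, Vtn and Atp13a5 stood at 363 and 418 CPM in the 12 against 1391 and 1473 CPM in the 41. Single genes were not examined without the mixed nuclei. The 3 nuclei with 11 or more Myh11 UMIs all came from control replicate 3. They had no UMI of Abcc9 or Kcnj8, and their contractile list stood at 9482 CPM beside 5995 CPM for the pericyte list, or 10135 and 6815 CPM without the 1 mixed nucleus. In these 3 nuclei Acta2 had 27 UMIs (2943 CPM, against 0 UMIs in the 41), Lmod1 14 (1526 against 40.9 CPM) and the smooth muscle coactivator Myocd 4 (436 CPM, against 0 UMIs). Vtn stood at 218 against 1391 CPM, and Atp13a5 stood at 218 against 1473 CPM. Notch3 was present in all 3 nuclei, at 981 CPM against 767 CPM. A single library and 9175 UMIs carry this pattern.

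**Figure D4:**
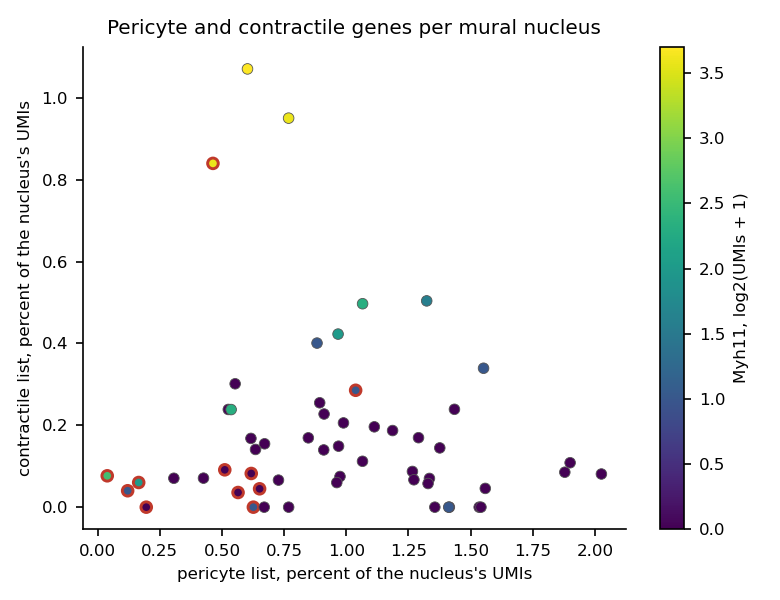
Share of each mural nucleus's UMIs given to the pericyte list (x axis, percent) and the contractile list (y axis, percent), colored by log2(Myh11 UMIs + 1); red rings mark the 11 nuclei that also held markers of another type. The 3 nuclei with 11 or more Myh11 UMIs lie above all others on the contractile axis.

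Smooth muscle genes are known for the CArG box, the motif bound by serum response factor. Only the exact pattern was searched, CC, then 6 bases that are each A or T, then GG. This pattern, though not each sequence that meets it, is the same on both strands. In the 250 bases before the start of each gene (GRCm39, GENCODE), a box was found in 304 of 21770 protein-coding genes (1.4%), in 1 of the 14 contractile genes, in 0 of the 14 pericyte genes and in 0 of the 6 genes of the rule. The match was upstream of Tagln (chr9:45847449-45847478, minus strand), at 64 to 55 bases before the start. It is shown because it is the only match among these 3 lists, the other lists not having been searched, with the box in capitals and the sequence read 5′ to 3′ on the gene's strand.
Tagln: agggtcctgcCCATAAAAGGtttttcccgg
A match describes these letters and not a bound site. Boxes outside the window and boxes that depart from the exact pattern were not searched, so these counts do not show that a gene lacks a box.

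Mural nuclei carried genes of the vascular basement membrane, the sheet of laminin and collagen IV that pericytes and endothelium share. All 14 listed genes had UMIs, 8 were higher than in all other nuclei (median 1.88), 3 of 14 were higher than in fibroblasts (median 0.42) and 2 of 3 were higher than in endothelial cells (median 2.15). Only 1 of 14 in the 10-nucleus sums was higher than in all other nuclei (median 0.99), 0 of 14 than in fibroblasts (median -0.12) and 2 of 6 than in endothelial cells (median 1.02). Lama2 (chr10:26856032-27495754, minus strand), the laminin alpha-2 chain, stood at 1218, 1074, 594 and 228 CPM across control replicates 1 to 4 and 1435, 845, 882 and 1002 CPM across cKO replicates 10 to 13. All 8 were above the endothelial range of 31.1 to 139 CPM (log2 fold change 3.61 ± 0.31, adjusted p = 8.2e-10). The laminin gamma-1 gene Lamc1 was higher than in endothelial cells (log2 fold change 2.15 ± 0.30, adjusted p = 1.5e-06), and Lamc3 and Lamb1 were higher than in fibroblasts on 27 and 13 UMIs (log2 fold changes 2.72 ± 0.48 and 2.11 ± 0.46, adjusted p = 0.00011 and 0.0024). Lamb1 lost that call without cKO replicate 12 (adjusted p = 0.068). The collagen IV genes Col4a1 and Col4a2 were higher than in all other nuclei (log2 fold changes 2.10 ± 0.43 and 1.94 ± 0.45) but not detectably different from fibroblasts (0.40 ± 0.39 and 0.58 ± 0.42).

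Among 14 integrin and adhesion genes, 7 of 13 tested were higher than in all other nuclei (median 1.36), and 4 of 10 were higher and 1 lower than in fibroblasts (median 0.35). The 10-nucleus sums gave 4 of 13 higher, and 3 of 11 higher with 1 lower. Itga1, a collagen and laminin receptor, was higher than in fibroblasts (log2 fold change 2.48 ± 0.25, adjusted p = 2.0e-09). Dmd, which encodes dystrophin, the link between laminin receptors and actin, stood at 913, 716, 2109.5 and 1028 CPM across controls and 478, 282, 605 and 1122 CPM across libraries labelled cKO. It was higher than in endothelial cells (log2 fold change 2.94 ± 0.31, adjusted p = 2.5e-08) and fibroblasts (log2 fold change 2.97 ± 0.23, adjusted p = 1.3e-12), and Sgcd, a sarcoglycan, was lower than in fibroblasts (-1.95 ± 0.40, adjusted p = 0.0012). Part of the interstitial matrix list, of genes that fibroblasts are known for, was lower than in fibroblasts. The rule capped Dcn and fibroblasts were chosen by fibroblast markers, so this direction was favored by the choice. Of 9 tested genes outside the marker sets, 5 were lower and 1 higher than in fibroblasts (median -1.18), with 4 lower and 0 higher in the 10-nucleus sums (median -2.08). Fn1, fibronectin, stood at 913, 0, 416 and 228 CPM across controls and 59.8, 0, 227 and 281 CPM across libraries labelled cKO against 1102 to 1671 CPM in fibroblasts, with no overlap (log2 fold change -2.25 ± 0.32, adjusted p = 2.5e-06). The higher gene was Sparcl1, a matricellular protein, with a log2 fold change of 1.36 ± 0.29 (adjusted p = 0.0015). In the 45 nuclei without other types' markers the Fn1 level was 125 CPM, against 296 CPM in all 56.

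Genes of signaling between endothelium and mural cells were described by family. The endothelial ligand gene Pdgfb had 4 UMIs in 3 libraries against 119 to 419 CPM per library in endothelial cells, and was not tested in that comparison. Pdgfd was lower than in endothelial cells (log2 fold change -1.41 ± 0.43, adjusted p = 0.010), and Pdgfra, the receptor of OPCs and fibroblasts, was lower than in fibroblasts (log2 fold change -1.99 ± 0.48, adjusted p = 0.0064). Of the 5 listed platelet-derived growth factor genes, 0 of 5 were called against all other nuclei (median -0.12). In the Notch list 4 of 12 were higher than in all other nuclei and 2 of 7 higher than in fibroblasts (median 0.65). The median against all other nuclei was 1.27. With the 2 genes at 0 UMIs held at their floor it was 1.93, which is an upper limit, since such a gene can lie anywhere below the floor. In the 10-nucleus sums 0 of 13 Notch genes were higher than in all other nuclei (median 0.05) and 0 of 7 than in fibroblasts (median 0.44). Heyl, a transcriptional target of Notch, had 12 UMIs in 7 libraries and none in endothelial cells, so it was at least 17-fold higher in mural nuclei. Against all other nuclei the difference was a log2 fold change of 4.15 ± 0.61 (adjusted p = 4.2e-05). Its call against fibroblasts (1.74 ± 0.49, adjusted p = 0.028) was lost without control replicate 2 or 4 or cKO replicate 10, 11 or 13 (adjusted p = 0.054 to 0.22). Notch1 and the ligand gene Jag1 were higher than in all other nuclei (log2 fold changes 2.01 ± 0.40 and 2.88 ± 0.52), whereas the endothelial Notch genes Notch4 and Dll4 had 1 UMI each. Maml2, a Notch coactivator, was called higher than in all other nuclei (log2 fold change 0.78 ± 0.20) but lost the call with library as a block (0.76, adjusted p = 0.11) or without cKO replicate 12 or 13 (adjusted p = 0.062 and 0.11), and was -0.092 under TMM scaling. The median over all tested genes was -0.97 under that scaling.

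In the list of transforming growth factor beta and bone morphogenetic protein genes, 4 of 16 were higher and 1 lower than in all other nuclei (median 0.69), 0 higher and 1 lower than in fibroblasts (median -0.15), and 1 of 5 higher and 2 lower than in endothelial cells (median -0.64). In the 10-nucleus sums 0 of 16 were higher and 1 lower than in all other nuclei (median -0.41), 1 of 16 was lower than in fibroblasts (median -0.50) and 1 of 7 lower than in endothelial cells (median -1.06). Against all other nuclei the median over all tested genes was -1.23 in these sums and -0.12 in the 8-library fit. The list median lay above it in both fits. Bmp5, a ligand, was higher than in all other nuclei (log2 fold change 3.10 ± 0.53, adjusted p = 0.00030). Eng, the endothelial co-receptor endoglin, and Bmpr2, the type II receptor, were lower than in endothelial cells (log2 fold changes -1.49 ± 0.37 and -1.18 ± 0.31, adjusted p = 0.0020 and 0.0032). In the list of angiopoietin, sphingosine 1-phosphate and VEGF genes, 0 of 9 were called against all other nuclei (median 0.33, or at most 0.57 with Kdr at its floor) and 2 of 6 were higher than in fibroblasts (median 0.44), while the 10-nucleus sums gave 1 of 9 lower and 0 of 7. The higher genes were S1pr3, a sphingosine 1-phosphate receptor (log2 fold change 2.19 ± 0.41, adjusted p = 0.00029), and Cdh2, N-cadherin (log2 fold change 1.82 ± 0.38, adjusted p = 0.0015). The endothelial receptor genes Tek and S1pr1 had 2 and 3 UMIs in members, which gave mural to endothelial ratios of 0.0294 (0.00355 to 0.107) and 0.0632 (0.0129 to 0.187). Kdr had 0 UMIs.

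Of 17 transcription factor genes, 16 had UMIs. In mural nuclei 6 of 15 tested were higher than in all other nuclei (median 1.34), 4 of 14 were higher than in fibroblasts (median 0.15), and 0 of 4 were higher and 2 lower than in endothelial cells (median -0.17). In the 10-nucleus sums 3 of 15 and 3 of 14 were higher than in all other nuclei and fibroblasts, with medians of 0.61 and -0.43, and 1 of 7 was lower than in endothelial cells (median 0.27). Ebf1, also in the pericyte list, was detected in 52 of 56 nuclei, at 4444, 2506, 2169 and 1028 CPM across control replicates 1 to 4 and 2033, 1033, 429 and 2605 CPM across cKO replicates 10 to 13. It lay above fibroblasts (162 to 293 CPM) and all other nuclei (53.7 to 114 CPM) in every library, with a log2 fold change of 4.81 ± 0.30 (adjusted p = 1.0e-10) against all other nuclei, and overlapped endothelial cells (1167 to 1788 CPM; log2 fold change 0.63 ± 0.30, adjusted p = 0.098). Against endothelial cells it passed without cKO replicate 12 (log2 fold change 0.85, adjusted p = 0.00989) and without the 11 mixed nuclei (1.06, adjusted p = 0.00011). Tbx2, a T-box factor, was higher than in fibroblasts (log2 fold change 4.25 ± 0.47, adjusted p = 1.4e-08), and Epas1, a hypoxia-inducible factor subunit, and Mef2c, a muscle and endothelial factor, were higher than in fibroblasts by 2.13 ± 0.29 and 2.40 ± 0.30 on the log2 scale. Epas1 and Klf2, a factor induced by blood flow, were lower than in endothelial cells (log2 fold changes -0.77 ± 0.27 and -3.24 ± 0.50, adjusted p = 0.023 and 6.0e-06). Srf, which encodes serum response factor, had 1 UMI.

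Among solute transport genes, Slc38a11 was found in mural nuclei and had no UMI in endothelial cells. Of 14 listed, 5 were higher than in all other nuclei (median 1.35), 1 was higher and 1 lower than in fibroblasts (median 0.30), and 2 of 4 were higher and 2 lower than in endothelial cells (median -1.49). In the 10-nucleus sums 2 of 14 were higher and 1 lower than in all other nuclei (median 0.43), 1 higher and 2 lower than in fibroblasts (median -0.22), and 2 of 7 higher and 2 lower than in endothelial cells (median 1.15). Slc38a11 (chr2:65144007-65194427, minus strand), of the amino acid transporter family, stood at 852, 716, 357 and 0 CPM across control replicates 1 to 4 and 777, 376, 202 and 521 CPM across cKO replicates 10 to 13. It was found in 33 nuclei of 7 libraries, and control replicate 4, with 3 mural nuclei, had none. Endothelial cells had no UMI, so mural nuclei were at least 102-fold higher, and against fibroblasts the difference was a log2 fold change of 9.01 ± 0.45 (adjusted p = 1.1e-17). Slc12a2, the sodium, potassium and chloride cotransporter, was higher than in endothelial cells in 8 of 8 libraries (log2 fold change 1.59 ± 0.30, adjusted p = 9.6e-05), and Slc16a12, of the monocarboxylate transporter family, was higher than in all other nuclei (log2 fold change 3.08 ± 0.34, adjusted p = 8.5e-07).

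Genes outside the lists were named by the smallest adjusted p among those with the same direction in every library, so their agreement across libraries restates that choice. Dlc1 (chr8:37034901-37420297, minus strand), a GTPase-activating protein that acts on the actin cytoskeleton, stood at 4201, 6354, 3031 and 4909.8 CPM across control replicates 1 to 4 and 5022, 2724, 1135 and 4289 CPM across cKO replicates 10 to 13. Every library exceeded the endothelial (71.6 to 246 CPM), fibroblast (316 to 457 CPM) and all other ranges (122 to 167 CPM), and the lowest was cKO replicate 12. The log2 fold changes were 4.71 ± 0.32, 3.38 ± 0.23 and 4.75 ± 0.24 against the 3 groups (adjusted p = 1.0e-11, 7.6e-14 and 3.4e-12). Pde8b, a cyclic AMP phosphodiesterase, gave 6.29 ± 0.40, 4.28 ± 0.24 and 5.0 ± 0.26 in the same order, with 3166, 3222, 980.5 and 1484 CPM across controls and 2869.6, 1409, 706 and 1924 CPM across libraries labelled cKO. Carmn, the long non-coding RNA that hosts the smooth muscle microRNAs miR-143 and miR-145, was found in 35 nuclei and was higher than in endothelial cells (log2 fold change 6.09 ± 0.54, adjusted p = 1.1e-09), and Arhgap6, another GTPase-activating protein, and Plce1, a phospholipase C, were higher by 4.40 ± 0.38 and 3.48 ± 0.30 on the log2 scale. Grm7, a metabotropic glutamate receptor gene, was higher than in fibroblasts (log2 fold change 4.91 ± 0.37, adjusted p = 8.8e-13) with a wide spread, from 343 to 6086 CPM. Tbx3os1, a non-coding RNA beside Tbx3, had 57 UMIs and a log2 fold change of 7.52 ± 0.43 against all other nuclei. Ggt5, a glutamyl transferase, was low but even across libraries, at 93.9 to 240.5 CPM (log2 fold change 5.08 ± 0.34, adjusted p = 2.2e-10, against all other nuclei).

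The lower genes with the smallest adjusted p against endothelial cells included transporters. Slco1a4, an organic anion transporter of the blood-brain barrier, stood at 60.9, 0, 89.1 and 0 CPM across controls and 299, 0, 50.4 and 120.2 CPM across libraries labelled cKO, against 1692 to 2925 CPM in endothelial cells, with no overlap (log2 fold change -4.56 ± 0.37, adjusted p = 3.5e-10). The glucose transporter gene Slc2a1 (-4.59 ± 0.46, adjusted p = 8.9e-09), Bsg, which encodes basigin (-3.41 ± 0.35, adjusted p = 1.5e-08), and Sgms1, a sphingomyelin synthase (-3.11 ± 0.28, adjusted p = 1.2e-09), were also lower. Egfl7, a factor secreted by endothelium, had 3 UMIs in members, a ratio of 0.0263 (0.00541 to 0.0774). Cyyr1 had 0 UMIs, which makes it at least 33.2-fold lower. The rule capped Flt1 and Ptprb, so a low level of endothelial genes was favored by the choice. With library as a block 313 of 1615 tested genes were lower and 170 higher than in endothelial cells.

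Against fibroblasts, the lowest adjusted p among lower genes belonged to Plxna2, a semaphorin receptor (log2 fold change -2.50 ± 0.34, adjusted p = 1.7e-06), Fn1 and F3, tissue factor (log2 fold change -2.64 ± 0.40, adjusted p = 7.7e-06). Chrm3, a muscarinic receptor, had a log2 fold change of -3.93 ± 0.59 (adjusted p = 7.8e-06). Rtl4 had no UMI in members, which makes it at least 9.6-fold lower than in fibroblasts. With single libraries left out, the number of genes lower than in fibroblasts ran from 120 without cKO replicate 13 to 278 without cKO replicate 12, against 197 with all 8. Against all other nuclei, which are mostly glia, the lower genes included genes of oligodendrocytes. Nkain2, a sodium pump interacting protein, stood at 75.6 to 535 CPM against 4481 to 5836 CPM (log2 fold change -4.19 ± 0.26, adjusted p = 1.0e-10). Slc24a2, a sodium, calcium and potassium exchanger, and Prr5l, a regulator of mTOR complex 2, had log2 fold changes of -4.16 ± 0.31 and -3.77 ± 0.31. All 7 oligodendrocyte genes listed were lower than in all other nuclei (median -1.71). The rule capped St18 and Dcn, so low levels of oligodendrocyte genes, and of fibroblast genes against fibroblasts, were favored by the choice.

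Genotype was compared per library. The share of mural nuclei was 0.137%, 0.153%, 0.258% and 0.0813% in control replicates 1 to 4 and 0.189%, 0.057%, 0.0927% and 0.15% in cKO replicates 10 to 13. The groups overlapped, with means of 0.157% ± 0.074 (SD, n = 4) and 0.122% ± 0.059 (SD, n = 4), and the exact two-sided permutation test gave p = 0.51, where the smallest p that 4 against 4 libraries allow is 0.029. The 95% exact binomial interval of a single library was wide, 0.133% to 0.450% for control replicate 3 and 0.0155% to 0.146% for cKO replicate 11, and covers counting error only. Without control replicate 3 the difference in means was -0.0016 percentage points. The number of mural nuclei per endothelial nucleus, which does not depend on the glia, was 0.305 ± 0.047 in controls and 0.216 ± 0.088 in the libraries labelled cKO (SD, n = 4 each), a log2 difference of -0.58 (exact permutation test, p = 0.20, and 0.40 after BH adjustment over the 2 tests of cell number, with 0.51 for the share). At a minimum of 2000 UMIs per nucleus that difference was 0.23 (p = 0.71 by the same exact test). In such a sum fewer nuclei of a type and a lower recovery of that type cannot be told apart.

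**Figure D5:**
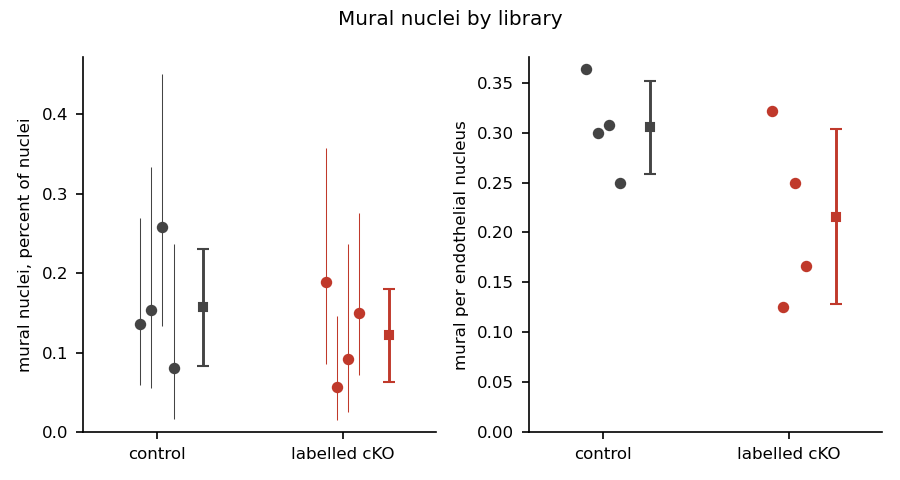
Mural nuclei as a percent of all nuclei (left, with 95% exact binomial intervals) and per endothelial nucleus (right) for each library; squares and thick bars are the mean ± SD of 4 libraries. The controls and the libraries labelled cKO overlap in both panels.

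Within mural nuclei, edgeR's quasi-likelihood test over all 8 libraries called 0 of 113 tested genes between the groups (0%), with 5 at an unadjusted p under 0.05. DESeq2 called 0 of 4065, with 48 at an unadjusted p under 0.05. Neither number exceeded the share of 0.05 that this threshold allows by chance. With 29 and 27 nuclei, the sums allowed few genes to be tested. The 5 genes were Sema6d, a semaphorin (log2 fold change 1.52 ± 0.48, adjusted p = 0.42), Tcf4, a transcription factor (1.37 ± 0.44, adjusted p = 0.42), Trf, transferrin (1.09 ± 0.39, adjusted p = 0.55), the hemoglobin gene Hbb-bs (-1.17 ± 0.45, adjusted p = 0.60) and Igfbp7, an insulin-like growth factor binding protein (-1.18 ± 0.53, adjusted p = 0.62). Tcf4 stood at 669.7, 537, 743 and 343 CPM across controls and 1255, 939, 1487 and 1403 CPM across libraries labelled cKO, and Trf at 447 to 670 CPM and 706 to 1503 CPM. For both genes all 4 libraries labelled cKO were above all 4 controls, which describes genes picked by their p and adds no test. How many of the 113 tested genes separated in this way was not counted. Trf is an abundant gene of oligodendrocytes and Hbb-bs of red blood cells. The oligodendrocyte list ranged from 3768 to 6175 CPM over the control mural sums and from 1840.4 to 7140 CPM over the labelled cKO sums, and the fibroblast list from 1521 to 9686 and from 717 to 22690.0 CPM. The part of these lists in the values above was not tested. Without the 11 mixed nuclei Hbb-bs was called lower in the libraries labelled cKO (log2 fold change -1.70, adjusted p = 0.018), among 62 tested genes. Over all mural nuclei it stood at 1096, 1611, 2971 and 1599 CPM across controls and 598, 845, 454 and 1122 CPM across libraries labelled cKO. The groups thus overlapped, and control replicate 3 held 100 of the 150 control UMIs. With no filter on low counts Acta2 was called, on 32 UMIs of which 31 were in control replicate 3. Of the 4 tested pericyte genes none was called, with Vtn at 0.33 ± 0.41, Atp13a5 at -0.07 ± 0.73 and Ebf1 at -0.65 ± 0.48 on the log2 scale. The summed pericyte list overlapped, at 3197 to 11932 CPM over the controls and 3605 to 9805 CPM over the libraries labelled cKO. The summed contractile list did not, at 1256 to 3595 and 630 to 1082 CPM. Of all the lists examined it was the only one without overlap. By chance 4 against 4 libraries separate in a share of 0.029 of orderings, and many lists were examined. The contractile list was picked after the values were seen, none of its genes passed the count filter between groups, and the difference was not tested.

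The channel that the study targeted was rare in mural nuclei. Piezo2 had 21 UMIs in 7 of 56 nuclei (12.5%, exact 95% interval 5.18% to 24.1%), of which 12 UMIs were in cKO replicate 12. The 11 mixed nuclei held 16 of the 21 UMIs, 11 of them in a single nucleus, and 3 of the other 45 nuclei had 5 UMIs. After each nucleus was thinned to 1000 UMIs, 3 of 56 had Piezo2 (5.36%, 1.12% to 14.9%), against 2.29% of astrocytes, a type with little Piezo2, and 33.2% of oligodendrocytes. Unthinned shares were 6.07% in astrocytes (median 3051 UMIs) and 63.3% in oligodendrocytes (median 2975 UMIs). Per library Piezo2 stood at 60.9, 0, 149 and 343 CPM across controls and 0, 0, 303 and 0 CPM across libraries labelled cKO, with 0 in 4 libraries. It was lower than in fibroblasts (log2 fold change -1.33 ± 0.38, adjusted p = 0.028), a call lost without control replicate 1, 2 or 3 or cKO replicate 10, 11 or 13 (adjusted p = 0.0501 to 0.13). Without the 11 mixed nuclei the log2 fold change was -2.48 (adjusted p = 0.00051). Piezo1 had 2 UMIs in 1 nucleus, which was 1.79% of members (0.0452% to 9.55%) against 29.3% of endothelial nuclei. That nucleus was a mixed one, and none of the other 45 had Piezo1. With Trpv4, which had 0 UMIs, set to its floor, the median of the 8 listed mechanosensitive channel genes against all other nuclei was 0.22, an upper limit that gives no direction. As fitted it was -0.66, with 0 of the 8 higher and 2 lower than in all other nuclei, and 0 higher and 1 lower in the 10-nucleus sums (median -2.41). The lower genes were Tmem63a (log2 fold change -1.80 ± 0.45, adjusted p = 0.012) and Tmem63b, with 1 UMI, a ratio of 0.134 (0.0034 to 0.749). Tmem63a lost its call without cKO replicate 12 (adjusted p = 0.073) and without the 11 mixed nuclei (adjusted p = 0.27). Trpm7 and Pkd2, with UMIs in 20 and 21 nuclei, gave log2 fold changes of -0.05 ± 0.22 and 0.55 ± 0.27. Olig2 had 3 UMIs in 3 nuclei.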

How the data were processed

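Nuclei of mouse ONs were profiled with 10x single-nucleus libraries, 4 per group. The authors deposited raw UMI counts per gene and barcode for each library, made with Cell Ranger 7.0.0 against GRCm39 according to the submitters' processing notes, with 33696 genes listed. The deposited counts were used as they stood, with no correction for free RNA. Barcodes with at least 1000 UMIs and under 5% mitochondrial UMIs were kept. Mural nuclei, endothelial cells and fibroblasts were chosen by marker genes and not by clustering. The members and gene lists were chosen with earlier results of these data known.

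For each library, the counts of a cell type were added up and tested with edgeR 4.0.16 (R 4.3.3) after filterByExpr, with genotype as covariate, and genes used to choose cells stayed out of calls. TMM scaling was used for endothelial cells and genotype. For fibroblasts and all other nuclei, total-UMI scaling was chosen after the data were seen, and the TMM counts are given beside it. The 10-nucleus sums kept TMM scaling in every comparison. The use of every library, in place of sums of at least 10 nuclei, was adopted after the minimum left 2 libraries. Mural and comparison sums of a library come from the same pool of mice, so library was also fitted as a block, and blocked values are given where they change a call or move a count by over 1.5 times. Cell numbers were tested with exact permutation tests (scipy 1.17.1). Doublet scores came from Scrublet in scanpy 1.11.5 and members with high scores were kept, with their removal as an alternative. DESeq2 1.42.0, RLE size factors, no filter on low counts, stricter markers, thinning to 1000 UMIs and leaving out each library were other alternatives. Named genes were those of the rule and the lists, up to 10 genes per comparison and direction with the smallest adjusted p and the same direction in every library, and Piezo1, Piezo2 and Olig2. A few genes that the rule names are not reported here.

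Total counts of 8758 to 39665 UMIs per mural sum limited what could be tested, and binomial intervals and floors of 3 UMIs cover counting error only. A library is a pool of 3 mice.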

Additional observations from a re-analysis of the deposited data

Results flagged for a closer look

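Values per library were examined in 54 groups of 4 libraries. In 7 of them 1 library stood apart from the other 3 by Dixon's criterion at the 95% level. For normally distributed values chance meets it in about 1 of 20 groups, a rate that need not hold for sparse CPM values. A group with a single value above 0, such as Piezo2 in the libraries labelled cKO, meets it whatever that value. Among controls, Pdgfrb was highest in replicate 2, at 1969 CPM against 416 to 670 CPM in the others, and Cacna1c was highest in replicate 1, at 3348 CPM against 1142 to 1432 CPM. In control replicate 3, Myh11 stood at 1278 CPM and Acta2 at 921 CPM, against 0 to 183 CPM and 0 to 60.9 CPM in the other controls. Among the libraries labelled cKO, replicate 12, with 4 mural nuclei, had a median of 6756.5 UMIs per mural nucleus against 1677 to 2046 in the others. Of the 39665 mural UMIs of that library, 24877 lay in 1 mixed nucleus. Cacna1c was lowest in that library, at 479 CPM, and Piezo2, at 302.5 CPM, was detected in no other library of that group. All 12 of those Piezo2 UMIs lay in the 2 nuclei of that library that also held fibroblast markers. Outside every comparison, 15 barcodes with at least 500 but under 1000 UMIs held RNA of 3 or more of the 6 genes of the rule.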

How the results depend on the processing

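Over 177 named genes and comparisons, 2978 of 3098 values under an alternative kept their direction and side of the threshold, 110 no longer passed (44 of them in sums of at least 10 nuclei, the limit first planned), 6 newly passed and 4 changed sign. Sums of at least 10 nuclei also used TMM scaling, so against fibroblasts and all other nuclei they changed the scaling as well as the minimum. Those 4 were Ebf1 (-0.12) and Prkg1 (-0.43) against endothelial cells with no filter on low counts, Tbxa2r (-6.65) in sums of at least 10 nuclei and Maml2 (-0.092) under TMM, the last pair against all other nuclei. Tbxa2r had no UMI in either mural sum of that fit, which fixed its sign. Under TMM the median over all tested genes of the comparison with all other nuclei also moved, from -0.12 to -0.97. The mural to endothelial log2 difference, -0.58, was 0.23 at 2000 UMIs, -0.91 without high doublet scores (exact permutation p = 0.11) and -0.37 with at least 4 markers, and the difference in share, -0.035 percentage points, was -0.012, -0.047 and -0.010 in that order. The cause was not tested.

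In sums of at least 10 nuclei, genes higher than in endothelial cells numbered 17 with DESeq2, 182 in sums of at least 5 nuclei and 56 after thinning, against 102. Genes lower numbered 6 with DESeq2, 63 with RLE, 185 with no filter, 219 in sums of at least 5 nuclei, 176 in every library, 56 after thinning and 47 with total-UMI scaling, against 106. For fibroblasts, higher genes numbered 31 with DESeq2, 256 (at least 5 nuclei), 193 (every library, TMM) and 39 (thinned), against 76, and lower genes 0 with DESeq2 (339 genes in either direction at an unadjusted p under 0.05), 105 (RLE), 873, 1010, 81 (thinned) and 79 (total UMIs), against 176. For all other nuclei, higher genes numbered 203 with DESeq2, 274, 296 and 12 in the same order, against 89, and lower genes 87 with DESeq2, 166 (RLE), 1479, 2613, 62 (thinned) and 99 (total UMIs), against 283.

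In every library, genes higher than in endothelial cells numbered 319 with DESeq2, 317 with no filter and 20 after thinning, against 120, and lower genes 419, 967 and 24, against 176. With library as a replicate block 313 were lower. Against fibroblasts, higher genes numbered 2321 with DESeq2 and 428 with no filter, against 270, and lower genes 1010 with TMM, 355 with DESeq2, 390 without the 11 mixed nuclei and 120 without replicate 13, against 197. Against all other nuclei, higher genes numbered 296 with TMM, 10061 with DESeq2 and 332 after thinning, against 557, and lower genes 2613 with TMM, 1179 with DESeq2, 770 with RLE, 296 with at least 4 markers and 269 after thinning, against 494. Between groups, no filter called 1 gene, Acta2, with 31 of its 32 UMIs in control replicate 3 and 0 in the libraries labelled cKO, and removal of the 11 mixed nuclei called 1 of 62 tested, Hbb-bs (-1.70, adjusted p = 0.018).

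Leaving out single libraries, the share differed by -0.061 to -0.0016 percentage points and the log2 ratio by -0.80 to -0.35. Genes higher and lower numbered 112 to 153 and 143 to 202 against endothelial cells, 219 to 317 and 120 to 278 against fibroblasts, and 453 to 510 and 400 to 461 against all other nuclei, with 0 to 0 between groups. The block changed no call of a named gene other than Rbpms and Maml2. In sums of at least 10 nuclei, at least 4 markers, doublet removal, leaving out replicate 3 or 13 and every fit between groups could not be run, since too few libraries remained.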
